A study of Homo sapiens with 22 samples.

Results

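The 8 genes described here belong to the LIN28 and let-7 axis: the RNA-binding proteins LIN28A and LIN28B, the let-7 target genes HMGA1, HMGA2, IGF2BP1, IGF2BP2 and IGF2BP3, and DICER1, which makes mature miRNAs. They were chosen by name, out of 19775 genes measured, with every array probeset that named a single one of them. This gave 28 of the 54675 probesets: 9 for HMGA2, 6 for DICER1, 4 for IGF2BP3, 3 for IGF2BP1, 2 each for HMGA1 and IGF2BP2, and 1 each for LIN28A and LIN28B. Expression had been measured in 11 human neuroblastoma cell lines after 18 hours in hypoxia (1% O2) or normoxia (20% O2), to look for genes whose expression follows the oxygen supply. There was 1 Affymetrix array for each line in each condition, 22 arrays in all, and no repeat of a line within a condition. SK-N-BE2(C), LAN-1, SK-N-SH, GI-ME-N, ACN, SK-N-F1, IMR-32 and GI-LI-N came from a cell line collection. SHEP-2 and SHEP21N, with and without overexpression of MYCN, came from a laboratory, and the 3 SHEP lines are related. SHEP21N without overexpression was the only line grown with tetracycline (50 ng/mL), so the antibiotic and the absence of overexpression cannot be told apart.

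let-7 is a family of miRNAs that accumulates as cells differentiate and lowers the output of growth and fetal genes through sites in their mRNAs. LIN28A and LIN28B bind let-7 precursors and block their maturation, LIN28A together with enzymes that add uridines to the precursor. LIN28B is itself a let-7 target, so the pair forms a loop in which each holds the other down. In neuroblastoma LIN28B is known as an oncogene that lowers let-7 and so raises the MYCN protein, and MYCN is a transcription factor whose gene is amplified in many aggressive tumors. The arrays measured mRNAs and no mature miRNA, so let-7 levels were not analysed here.

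The 9 mature let-7 family members found in RefSeq (GRCh38.p14) come from 12 loci and share 1 seed, the stretch from base 2 to base 8 that pairs with a target. The commonest, the member least like it and miR-98 are shown, with the seed in capitals, because this shared stretch is what makes the genes below targets of 1 family.
let-7a-5p: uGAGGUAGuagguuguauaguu
let-7i-5p: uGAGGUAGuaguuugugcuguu
miR-98-5p: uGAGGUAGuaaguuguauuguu
A site that pairs with this seed reads CUACCUC in the mRNA. let-7i-5p differed from let-7a-5p at 4 of its 22 bases and miR-98-5p at 2, all of them outside the seed. Loci that lie within transcripts measured here are let-7f-2 and miR-98 within HUWE1, let-7g within WDR82, let-7a-2 within MIR100HG, let-7c within MIR99AHG, and let-7a-3 and let-7b within MIRLET7BHG.

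Promoter windows of 300 bases were at hand for 5 of the 8 genes, 12 windows in all. CACGTG, the E-box that MYCN binds with its partner MAX, occurred in 2 of the 12, against 7.26% of all 35116 windows. Both are shown with the match in capitals, since MYCN is the level against which the lines were ordered.
LIN28B, chr6:104956857-104957156, plus strand, GRCh38.p14: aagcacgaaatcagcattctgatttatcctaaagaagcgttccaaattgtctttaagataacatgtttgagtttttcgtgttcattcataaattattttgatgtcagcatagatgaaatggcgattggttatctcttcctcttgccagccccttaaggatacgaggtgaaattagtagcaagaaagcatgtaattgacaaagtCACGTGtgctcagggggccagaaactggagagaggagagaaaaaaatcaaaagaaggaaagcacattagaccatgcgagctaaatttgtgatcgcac
IGF2BP3, chr7:23470442-23470741, minus strand, GRCh38.p14: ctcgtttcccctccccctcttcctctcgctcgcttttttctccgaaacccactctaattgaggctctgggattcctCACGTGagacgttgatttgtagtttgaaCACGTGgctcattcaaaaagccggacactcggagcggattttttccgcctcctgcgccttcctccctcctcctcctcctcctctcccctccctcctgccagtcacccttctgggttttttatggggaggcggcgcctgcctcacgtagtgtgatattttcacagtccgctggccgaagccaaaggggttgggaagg
The match for LIN28B began 47 bases before the annotated start, and the other LIN28B window held none. The IGF2BP3 window held 2 matches, which began 174 and 146 bases before the start. The core of the hypoxia response element, ACGTG or GCGTG on either strand, overlaps CACGTG and was found in 6 of the 12 windows, against 48.4% of all windows. These are matches of letters, and no binding was measured.

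Before the results, 3 features of the arrays need stating. The normoxic array labelled SHEP21N with MYCN overexpression had a GAPDH 3'/5' signal ratio of 67.3, against a median of 1.12 over the 22 arrays, a ratio read as a sign of RNA quality. Its ACTB ratio was 94.0, and the normoxic array of SHEP21N without overexpression, with 5.05, was the only other above 3 for ACTB. At the brightest MYCN probeset all 4 SHEP21N arrays had a signal of 19.0 or less, and at the next one the array labelled with overexpression had 830.2 in hypoxia and 13.7 in normoxia, against 25.3 and 28.7 for the line labelled without. The arrays of SK-N-SH, GI-LI-N and IMR-32 correlated with each other at 0.922 to 0.942 over 28515 probesets, within the 0.879 to 0.962 of the hypoxic and normoxic array of 1 line and above the 0.544 to 0.862 of other pairs of lines, apart from the related SHEP21N pair (0.871 to 0.935). SK-N-SH, usually known as a line without MYCN amplification, had MYCN signals of 35223 in hypoxia and 33504 in normoxia here.

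Signals are given as deposited, in arbitrary units, with hypoxia before normoxia. MYCN, at its brightest probeset, set the order of the lines. It had a signal of 67626 and 55612 in SK-N-BE2(C), 37386 and 33350.0 in LAN-1, 44726 and 43593 in GI-LI-N, 35223 and 33504 in SK-N-SH, 44544 and 38791 in IMR-32 and 6119 and 5788 in SK-N-F1. In SHEP-2, ACN, GI-ME-N and both SHEP21N lines it was 55.3 at most. The lines therefore formed separate clusters, and no correlation with MYCN is given over all of them. At the next brightest MYCN probeset SK-N-F1 had only 27.9 and 40.0. Its place among the 6 lines with MYCN signal thus rests on the brightest probeset. The 6 lines with MYCN signal also had the higher adrenergic markers, whose mean log2 signal over the array median ranged from 4.04 to 5.58 against -2.46 to -0.04 in the other 5. The 6 adrenergic markers measured were PHOX2A, HAND2, GATA3, TH, DBH and CHGA, of which 5 or 6 were above the array median in each of those lines and 1 to 3 in the others. Mesenchymal markers (PRRX1, VIM, FN1, CD44 and YAP1) ran the other way in their mean, from 1.40 to 3.04 against 5.62 to 7.01. Taken singly, only YAP1 of these was higher on every array of the other 5 lines. PRRX1, VIM, FN1 and CD44 overlapped between the groups, as did TH among the adrenergic markers. VIM had 35950 and 28855 in SK-N-BE2(C), against 27588 and 20292 in SHEP21N with MYCN overexpression. By the marker means MYCN level and cell state went together, and they cannot be told apart in these lines.

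LIN28B, the let-7 blocker known from neuroblastoma, was high in every line with MYCN signal. It had a signal of 8093 and 7687 in LAN-1, 2158 and 2944 in SK-N-SH, 2663 and 2974 in GI-LI-N, 1655 and 1862 in IMR-32, 1709.7 and 1757 in SK-N-BE2(C) and 985 and 1484 in SK-N-F1. In the other lines it was 205 and 308 in SHEP21N with MYCN overexpression, 151 and 345 in SHEP21N without, 133.4 and 131.2 in GI-ME-N, 90.5 and 95.5 in SHEP-2 and 50.3 and 34.9 in ACN. The 12 arrays of the 6 lines were all above the 10 arrays of the other 5, with a gap of 1.60 on the log2 scale between the nearest arrays after division by the array median. Of all genes, 2.73% separated the lines in this way and direction. LIN28B differed between lines (limma, adjusted p = 1.51e-07), with 99.0% of its variance between lines, against a median of 83.0% over all genes. Its line means spanned 343-fold, although the low end, ACN, lay below the array median, so that this size rests on a signal near the background.

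The order of LIN28B did not follow that of MYCN among the 6 lines. LAN-1 had the highest LIN28B mean, 1.73 on the log2 scale above SK-N-SH, more than the spread left in the fit allowed for neighbours (0.77). SK-N-SH, GI-LI-N, IMR-32, SK-N-BE2(C) and SK-N-F1 followed with gaps between neighbours of 0.66 at most, none beyond that spread, although SK-N-BE2(C) had the highest MYCN signal. SK-N-F1, lowest in MYCN of the 6, stood 2.52 above the next line, SHEP21N with MYCN overexpression. Below it the 2 SHEP21N lines differed by 0.05, which was within the spread. By contrast, GI-ME-N exceeded SHEP-2 by 1.27 and SHEP-2 exceeded ACN by 1.16.

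LIN28A, the paralog best known from embryonic stem cells, was near the floor of the array. Its only probeset ranged from 4.0 to 223 with a median of 34.2, and was above the array median on 3 of the 22 arrays. The highest signal was that of normoxic ACN, which had 20.8 in hypoxia. Its lines did not differ beyond the spread (limma, adjusted p = 0.0830).

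HMGA2, a chromatin protein of fetal tissues and a classical let-7 target, had the opposite distribution to LIN28B. It had a signal of 12365 and 12761 in GI-ME-N, 1286 and 1920.1 in SHEP21N without MYCN overexpression, 1233 and 2016 in SHEP21N with it, 1034 and 1541 in ACN and 359.9 and 655 in SHEP-2. In the 6 lines with MYCN signal it was 48.5 at most. These signals are those of its brightest probeset. All arrays of the 5 lines were above all arrays of the 6, a pattern in this direction shared by 1.02% of all genes. The gap between the nearest arrays was 2.08 on the log2 scale and line means spanned 1817-fold, although values at the low end are near the background and carry little information. HMGA2 differed between lines (limma, adjusted p = 3.26e-05), and GI-ME-N stood 3.29 on the log2 scale above the next line. At each of the other HMGA2 probesets, all dimmer, the groups overlapped. SK-N-BE2(C), for example, had 70.7 and 83.9 at a probeset where SHEP-2 had 17.2 and 32.8.

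**Figure D1:**
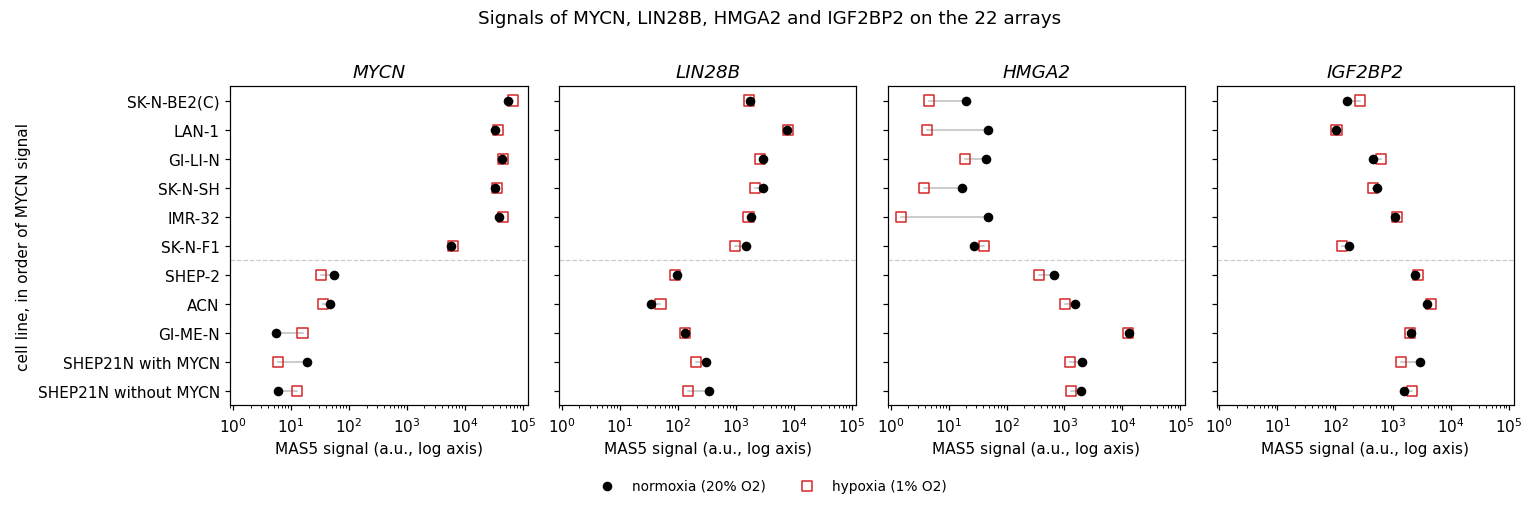
MAS5 signals (horizontal log axes, arbitrary units) of MYCN, LIN28B, HMGA2 and IGF2BP2 in 11 neuroblastoma cell lines, 1 row per line in the order of MYCN signal, where a red square marks the hypoxic and a black circle the normoxic array. Each gene is shown by its brightest probeset. Above the dashed line are the 6 lines with MYCN signal, where LIN28B was 985 to 8093 and HMGA2 48.5 at most. Below it LIN28B was 34.9 to 345 and HMGA2 359.9 to 12761.

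The IGF2BP proteins bind mRNAs in the cytoplasm and protect them from decay, and all 3 are fetal proteins that reappear in tumors. At its brightest probeset IGF2BP2 was distributed like HMGA2. It had 4467 and 3867 in ACN, 2644 and 2414 in SHEP-2, 1347 and 2847 in SHEP21N with MYCN overexpression, 2124 and 1558 in SHEP21N without it and 1929 and 2020.2 in GI-ME-N. In the 6 lines with MYCN signal the range was 104 to 1160.0, with IMR-32 (1160.0 and 1074) nearest to the others and LAN-1 lowest (105 and 104). The arrays of the 5 lines were again all above those of the 6, as for 1.02% of all genes, but the gap was only 0.30 on the log2 scale. At the other, dimmer probeset the groups overlapped, with 119 and 126 in IMR-32 against 65.1 and 91.9 in GI-ME-N. IGF2BP2 differed between lines (limma, adjusted p = 4.46e-06) over a 21.8-fold range.

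IGF2BP1 followed neither order. At its brightest probeset GI-LI-N (4895 and 3917), IMR-32 (3553 and 4038) and SK-N-SH (3536 and 3819), whose arrays resembled each other, had the highest signals. LAN-1 (876 and 713), SHEP-2 (736 and 776), GI-ME-N (328 and 422) and SHEP21N with (203 and 359) and without (352 and 155) MYCN overexpression were intermediate, and ACN had 116 and 27.1. The lowest signals were those of SK-N-BE2(C), 34.8 and 5.96, and SK-N-F1, 14.0 and 10.4, both of which had MYCN signal. IGF2BP1 thus spanned the full range within the lines with MYCN signal, and differed between lines (limma, adjusted p = 5.07e-06). At the brightest probeset the step of 1.85 on the log2 scale below IMR-32 was beyond the spread. So was the step down to ACN, whose size is not given. At the next brightest, SK-N-SH again had the highest line mean, but both SHEP21N lines and GI-ME-N followed. They had 1008.5 and 627.9 with MYCN overexpression, 769.6 and 730.2 without it, and 545 and 634 in GI-ME-N. GI-LI-N had 520 and 792 there, and LAN-1 and IMR-32 had equal line means (2.63 over the array median). The order of ACN, SK-N-F1 and SK-N-BE2(C) is not read, since all but 1 of their signals were under 50.

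IGF2BP3 was present on every array, from 1453 in normoxic SHEP-2 to 5734 in normoxic GI-LI-N, with a median of 3827. The lines with MYCN signal lay between 2628 and 5734 and the others between 1453 and 5273, so the ranges overlapped. Its line means spanned 5.61-fold, the narrowest range among the 8 genes, and differed between lines (limma, adjusted p = 0.000382).

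HMGA1, the relative of HMGA2 that is common in proliferating cells, was also present on every array, from 1267 to 14194 with a median of 7003. The highest line means were those of SK-N-SH, IMR-32 and SHEP21N without MYCN overexpression, and the lowest those of SK-N-F1, ACN and SHEP-2, so both kinds of line occurred at either end. Its line means spanned 12.8-fold (limma, adjusted p = 3.17e-05). DICER1, the nuclease that cuts let-7 and other precursors to their mature length and itself a let-7 target, ranged from 911 in hypoxic SHEP-2 to 12499.8 in normoxic SK-N-BE2(C). The highest DICER1 signals were those of SK-N-BE2(C) (12487 and 12499.8), LAN-1 (9135 and 8926), GI-LI-N (6683 and 7727), SK-N-SH (5847 and 6892) and IMR-32 (4418 and 5469), which are also the 5 lines highest in MYCN. SK-N-F1 (2247 and 2837) lay among the other 5 lines, which ranged from 911 to 3884, so the groups overlapped. DICER1 differed between lines over a 16.6-fold range (limma, adjusted p = 2.74e-06).

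**Figure D2:**
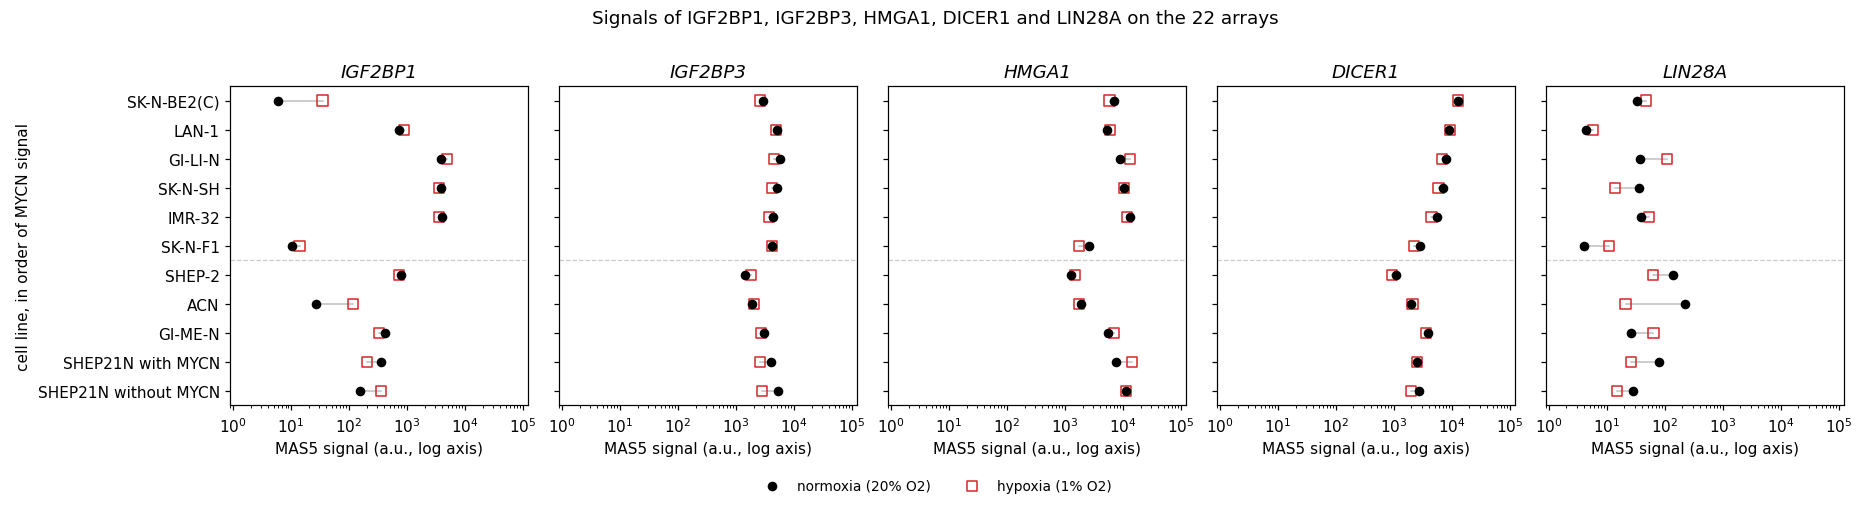
MAS5 signals (horizontal log axes, arbitrary units) of IGF2BP1, IGF2BP3, HMGA1, DICER1 and LIN28A, with lines and symbols as in the plot of MYCN and LIN28B. IGF2BP1 ranged from 5.96 to 4895 above the dashed line and from 27.1 to 776 below it, IGF2BP3 stayed between 1453 and 5734, and LIN28A did not exceed 223.

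Of the 28 probesets, 18 differed between lines at an adjusted p of 0.05 (limma), against 52.4% of all probesets. Of the brightest probesets 7 of 8 did, all but that of LIN28A, against 12697 of all 19775 genes by their brightest probeset. The probesets of a gene did not always rank the lines alike. For DICER1 the line means of the 2 other bright probesets correlated with those of the brightest at 0.927 and 0.868 over the 11 lines, while the 3 dim ones gave -0.18 to 0.395. For HMGA2 the other 8 probesets gave 0.383 to 0.897, for IGF2BP1 the other 2 gave 0.831 and 0.840, and for IGF2BP2 and HMGA1 the other probeset gave 0.896 and 0.658. IGF2BP3 gave 0.858, 0.453 and 0.136. These correlations share their arrays and are descriptions only.

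1 array with a sign of poor RNA quality had low values at some probesets. On the normoxic array labelled SHEP21N with MYCN overexpression, DICER1 had 2509 at its brightest probeset and 217 at a less bright one, and IGF2BP3 had 4012 at the brightest and 1452 and 8.0 at others, the lowest values of those probesets on any array. The part of RNA quality in these values was not tested.

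SHEP21N is the only line for which the labels contrast MYCN levels, with 1 array for each label and condition. The differences given are on the log2 scale, with minus without overexpression, after division by the array median. LIN28B had signals of 205 with and 151 without overexpression in hypoxia (a difference of 0.48) and 308 and 345 in normoxia (-0.38). HMGA2 had 1233 and 1286 in hypoxia (-0.02) and 2016 and 1920.1 in normoxia (-0.15). The direction turned between the conditions for LIN28B and, likewise, for IGF2BP1 (-0.76 in hypoxia, 0.99 in normoxia), IGF2BP2 (-0.62 and 0.65), HMGA1 (0.38 and -0.80) and DICER1 (0.37 and -0.32). IGF2BP3 was lower with overexpression in both conditions (-0.08 and -0.61) and LIN28A higher (0.88 and 1.28), the latter at signals below the array median. For none of the 8 genes did the means of both lines differ by more than the spread left in the fit over all 22 arrays. MYCN itself, at its second brightest probeset, was higher with overexpression in hypoxia only (830.2 against 25.3). In normoxia it had 13.7 with and 28.7 without. A mean over both conditions therefore cannot show what MYCN overexpression does to these genes. Both normoxic arrays of this contrast had raised ACTB 3'/5' ratios, 94.0 with and 5.05 without overexpression, and their part in these values was not tested.

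The genes whose line means were most like those of LIN28B over the 11 lines, out of 9306 ranked, were TMEM33 (Pearson r = 0.976), RAB33A (0.975), RNF44 (0.975), MED28 (0.972) and CLVS1 (0.971). For HMGA2 they were SP100 (0.960), CRTAP (0.959), EMP1 (0.958), FXYD5 (0.957) and YBX3 (0.956). For IGF2BP1 the nearest genes were less alike, with DIRAS3 at 0.914, LHX9 at 0.886, XRRA1 at 0.886, PCSK6 at 0.881 and FOXD1 at 0.880. The 11 means share arrays and a clustered set of lines, and the correlations describe these lines only.

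The question of the design was whether hypoxia changed these mRNAs. None of the 28 probesets passed an adjusted p of 0.05 in limma with the line as a block, against 0.0476% of all probesets (0.00183% of them lower), and adjusted p ranged from 0.463 to 0.995. At an unadjusted p under 0.05 the count was 1, which was lower, against 8.09% of all probesets in either direction and 4.74% lower. The 28 changes were positive for 13 and negative for 15, with a median of -0.07 on the log2 scale against -0.02 for all probesets. Over the brightest probesets of the 8 genes the median was -0.22, against -0.04 for all genes.

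**Figure D3:**
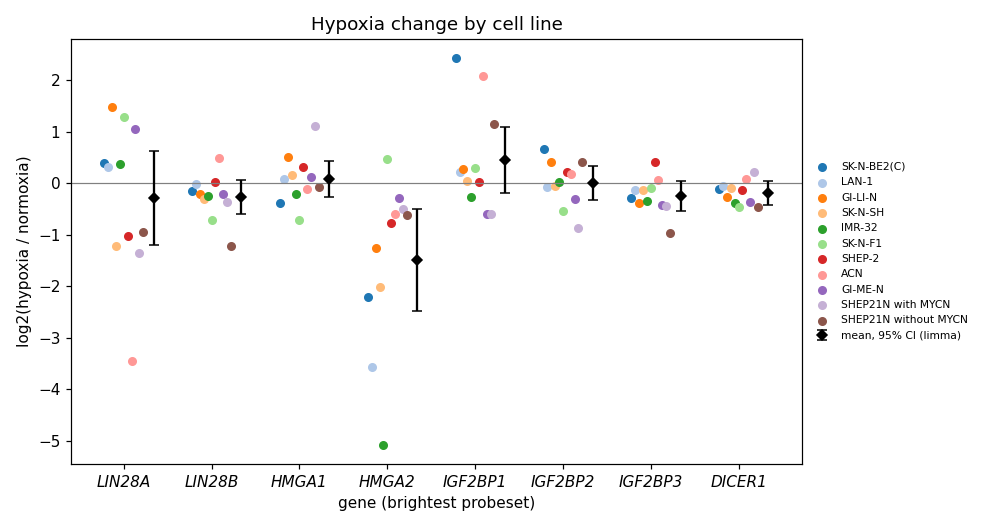
Change in hypoxia on the log2 scale (vertical axis, hypoxia over normoxia after division by the array median) of the brightest probeset of each gene, with 1 point per cell line and a diamond with a bar for the mean and its 95% confidence interval from limma. HMGA2 had the most negative mean (-1.49), with the most negative points in lines in which its signal was 48.5 or less, and the other means lay between -0.28 and 0.45.

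The regulators came out as follows. LIN28B was lower in hypoxia in 9 of 11 lines, with a mean log2 change of -0.27 (SE 0.15, 95% CI -0.60 to 0.06, n = 11, limma adjusted p = 0.668). The changes ran from -1.22 in SHEP21N without MYCN overexpression to 0.50 in ACN, and the line with the highest signal, LAN-1, had -0.01. Without SHEP21N without overexpression, whose normoxic array had the ACTB ratio of 5.05, the mean was -0.17, and without both SHEP21N lines it was -0.15. DICER1 was lower in 9 of 11 lines too, with -0.19 (SE 0.11, 95% CI -0.43 to 0.05, limma adjusted p = 0.679). The intervals of LIN28B and DICER1 did not include a 2-fold change in either direction. LIN28A had -0.28 (SE 0.42, limma adjusted p = 0.888), at signals mostly below the array median.

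HMGA2 was the member with the largest mean change and the only probeset past the unadjusted threshold: -1.49 on the log2 scale (SE 0.46, unadjusted p = 0.00684, limma adjusted p = 0.463), lower in 10 of 11 lines and higher in SK-N-F1. The most negative changes were those of IMR-32 (-5.07), LAN-1 (-3.57), SK-N-BE2(C) (-2.21), SK-N-SH (-2.02) and GI-LI-N (-1.25), all lines with normoxic signals of 48.5 or less. In the 5 lines with HMGA2 signal the changes were -0.28 in GI-ME-N, -0.49 and -0.62 in SHEP21N with and without MYCN overexpression, -0.60 in ACN and -0.77 in SHEP-2. With signals under 50 set to 50 the mean change was -0.28 (limma adjusted p = 0.353), so the size rested on signals near the background. The other 8 HMGA2 probesets had changes from -0.83 to 0.35, and their line by line changes correlated with those of the brightest at -0.58 to 0.50.

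The remaining targets showed no common direction. IGF2BP3 was lower in 9 of 11 lines (-0.25, SE 0.13, limma adjusted p = 0.651), with -0.15 without both SHEP21N lines. IGF2BP1 had 0.45 (SE 0.29, limma adjusted p = 0.714), with the highest changes in SK-N-BE2(C) (2.42) and ACN (2.07), where its signals were 116 or less. Its mean was 0.26 without SK-N-BE2(C), 0.29 without ACN and 0.10 with signals under 50 set to 50. IGF2BP2 (0.01, SE 0.15, limma adjusted p = 0.995) and HMGA1 (0.07, SE 0.16, limma adjusted p = 0.929) had means near 0. HMGA1 had a change of 1.11 in SHEP21N with MYCN overexpression, measured against the array with the high 3'/5' ratio, and without that line its mean was -0.03.

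**Figure D4:**
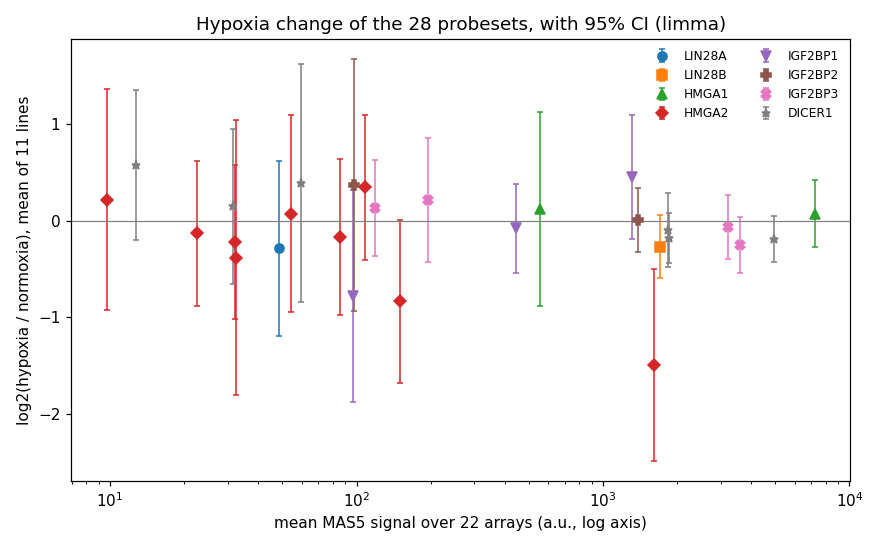
Mean change in hypoxia over 11 cell lines (vertical axis, log2 scale) against mean signal over 22 arrays (horizontal log axis, arbitrary units) for the 28 probesets, with bars for 95% confidence intervals from limma and 1 symbol per gene. The intervals mostly narrow with signal, but the brightest HMGA2 probeset, at a mean signal of 1611, has a wide one (SE 0.46). That probeset, at -1.49, is the only one whose interval leaves out 0.

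A difference of the hypoxia effect between the 3 SHEP lines and the other 8 was tested as an interaction. None of the 28 probesets passed in limma (0% of all probesets did), and none had an unadjusted p under 0.05, against 9.94% of all probesets. LIN28B had a mean change of -0.53 in the SHEP lines and of -0.17 in the others (limma adjusted p = 0.763), and HMGA2 had -0.63 and -1.82 (limma adjusted p = 0.735). In simulated data none of 100 interactions of 2 on the log2 scale, planted in probesets with a mean signal of at least 100, was found. This test could therefore not have shown a difference of that size.

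Of the genes that make, load or degrade let-7, 17 of the 18 listed were measured, each by its brightest probeset. None was higher and none lower in hypoxia at an adjusted p of 0.05 (limma), against 0.147% and 0.0152% of all genes, and 1 was lower at an unadjusted p under 0.05, against 7.07% of all genes. The median change was 0.00 on the log2 scale. The gene past the unadjusted threshold was DROSHA, the nuclear nuclease that starts miRNA processing, with -0.20 (SE 0.09, limma adjusted p = 0.457, lower in 9 of 11 lines) at signals from 1410.3 to 5266. AGO1, which carries the mature miRNA, had -0.23 (SE 0.11, adjusted p = 0.485). HNRNPA1, which binds the let-7a precursor, had 0.16 (SE 0.11, adjusted p = 0.619), and PRKRA, a partner of DICER1, had -0.10 (SE 0.11, adjusted p = 0.777). TNRC6B, part of the silencing complex, was the only gene of this list whose signal on every array of the 6 lines with MYCN signal exceeded that on any array of the other 5 (2.73% of all genes did). It was singled out after its values were seen.

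Of 30 other genes known as let-7 targets, 26 were measured, and none was higher or lower at an adjusted p of 0.05 (limma). At an unadjusted p under 0.05, 1 was lower (7.07% of all genes) and 1 higher (3.6% of all genes), and the median change was 0.00. RRM2, a subunit of ribonucleotide reductase that cells need for DNA synthesis, was lower in 10 of 11 lines, with -0.53 (SE 0.11, limma adjusted p = 0.120) at signals from 4952 to 26870.1. With signals under 50 set to 50 its change was the same and its adjusted p was 0.0430, so its call depended on how dim probesets were treated. IGF1R, the receptor of insulin-like growth factors, was higher in 9 of 11 lines (0.32, SE 0.10, limma adjusted p = 0.290) at its brightest probeset. The paper lists IGF1R in its hypoxia signature, which it selected by other criteria. ARID3A had 0.64 (SE 0.33, adjusted p = 0.524; 0.38 without SHEP-2) and COIL, the coilin of Cajal bodies, had -0.17 (SE 0.10, adjusted p = 0.579).

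By level, MYCN left aside because it ordered the lines, 4 of the other 25 targets were higher on every array of the 6 lines with MYCN signal than on any of the other 5 (2.73% of all genes were), and 1 was lower in the same way (1.02% of all genes were). The former were IGF1R, FIGN, and the cell cycle genes CCND1 and CDK6, and the latter was THBS1, a secreted matrix protein. They were named after their values were seen. CCND1 ranged from 215 to 11529.6 and CDK6 from 1567 to 17485 over the 22 arrays.

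Of the 6 let-7 host transcripts listed, which are not all that span let-7 loci, 5 were measured, and none passed in either direction (limma). MIRLET7BHG had a change of -0.30 (SE 0.22, adjusted p = 0.666) at signals from 21.8 to 403, MIR99AHG -0.12 (SE 0.21, adjusted p = 0.881), WDR82 -0.10 (SE 0.10, adjusted p = 0.777) and HUWE1 0.02 (SE 0.08, adjusted p = 0.951). A host transcript does not give the level of the miRNA cut from it, and a change of RNA per cell cannot be told apart here from a change in the share of cells that carry it.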

How the data were processed

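Expression was measured on 22 Affymetrix arrays of 11 cell lines. The deposited values are linear intensity from MAS5 (version not given in the sources used here), which the authors scaled to an array average of 500, so dim probesets hold noisy values near the background and differences are relative to the array. All arrays were used. Here every signal was turned into log2 of its ratio to the median of its array. Probesets were named from GEO's platform annotation, with symbols updated through RefSeq: 41097 of 54675 named 1 gene, 1801 several and 11777 none. Hypoxia was compared with normoxia with limma 3.58.1 under R 4.3.3 and blocked by cell line, since each line gave both arrays. The Benjamini and Hochberg adjustment ran over all probesets, or over all 19775 genes by their brightest probeset for gene lists. Line differences were tested by the F test of the same fit. With 1 array per line and condition the p values for hypoxia rest on the spread over lines, and the number of arrays limits the precision. All 11 lines entered as separate units, although the 3 SHEP lines are related and the arrays of SK-N-SH, GI-LI-N and IMR-32 resembled each other. The intervals and counts of lines may therefore rest on fewer independent units. The p values for line differences rest on the spread within lines after the condition term. There the hypoxic and normoxic arrays of a line stand in for repeats, and no independent repeat of a line was measured.

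The members and gene lists were chosen with earlier results of these data known. Every member was named, with the 4 genes of smallest unadjusted p of each list and the 5 genes most like LIN28B, HMGA2 and IGF2BP1. Genes ranked for likeness had a mean signal of at least 100 and a range of line means of at least 2 on the log2 scale. The fit was tested on simulated data, with changes planted only in probesets with a mean signal of at least 100. In these data 91 of 100 planted hypoxia changes of 2 on the log2 scale and 43 of 100 of 1 were called. There were 7 calls among 54375 unchanged probesets. The rates for planted changes do not apply to member probesets with a mean signal under 100. Alternatives in scaling, a floor of 50, a filter at a mean signal of 100, the methods' t-test, averaged related lines and left-out lines were run.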

Additional observations from a re-analysis of the deposited data

How the results depend on the processing

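No member probeset was called in hypoxia under any of 20 alternatives, and no interaction under any of 17, each time with each line left out (0 to 0). Some settings called few or no probesets at all, so a count of 0 among the members says little there. With SK-N-SH, GI-LI-N and IMR-32 averaged, 0 of 54675 probesets were called in hypoxia. The interaction called 0 of 54675 in the main fit and in several alternatives. The count that differed between lines was 18, from 16 to 22 over the alternatives and from 18 to 20 with 1 line left out. The 16 came from the filter at a mean signal of 100, where every member probeset that was kept differed. So did 25077 of all 28515 probesets kept by that filter. Conditions compared without pairing, that is with no replicate block, gave 0 calls among the members and both gene lists, as did the blocked fit, while over all probesets the calls went from 25 higher and 1 lower to 9 and 0, and over all genes from 29 and 3 to 4 and 0. For the genes of let-7 biogenesis and decay and for the other targets the count was 0 with each line left out, but 1 target, RRM2, passed with a floor of 50 (-0.53, adjusted p 0.0430), a setting that leaves less spread among dim probesets. The LIN28B gap was 1.52 with signals as deposited and 1.29 with quantile normalization, against 1.60. For HMGA2 and IGF2BP2, settings chosen after seeing the data gave gaps of 2.00 to 2.89 and 0.22 to 0.30.

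Signs turned only for changes that passed no threshold. When the probesets of a gene were averaged, IGF2BP1 had -0.13, IGF2BP3 0.0078, DICER1 0.11, AGO1 0.00055 and HNRNPA1 -0.024. HMGA1 had -0.011 with the 3 SHEP lines averaged, -0.025 without both SHEP21N lines and from -0.030 to 0.15 with 1 line left out. IGF2BP2 had -0.019 with SK-N-SH, GI-LI-N and IMR-32 averaged and from -0.059 to 0.093 with 1 line left out. LIN28A ranged from -0.46 to 0.032, the latter without ACN. Without both SHEP21N lines LIN28A had -0.09, PRKRA -0.18 and COIL -0.09, and with the probesets averaged IGF1R had 0.15. PRKRA had -0.05 without LAN-1 and -0.06 without GI-ME-N. The cause was not tested. Signals below 50 carry little information, which limits LIN28A throughout, HMGA2 in the lines with MYCN signal, and IGF2BP1 and LIN28B in the lines where they were lowest.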
